A study of Mus musculus with 4 samples.

Results

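The genes described here encode enzymes that burn fatty acids inside mitochondria: Acadvl, Acadl, Acadm, Acads, Hadha, Hadhb, Acaa2, Cpt1b, Cpt2 and Etfdh. They were taken by name, and all 10 were found among the 32285 genes of each count table. Their transcripts were followed in lung sections of 4 C57BL/6J mice measured with Visium, a spatial method in which RNA from a thin section is captured on a grid of barcoded spots, each of which can hold several cells of different types. V (Vaped) mice breathed aerosol of Peach Ice vape juice from JUUL pens in whole-body chambers for several hours on weekdays over several weeks, starting as young adults. NV (Non-Vaped) mice were the controls. Each group had 1 male and 1 female, each mouse gave 1 section labelled as upper pulmonary branches, and the number of each replicate therefore also marks its sex. The question addressed was whether transcript levels of these genes differed between V and NV mice in lung tissue and in the heart muscle and fat that the sections also held.

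Long-chain fatty acids cannot cross the inner mitochondrial membrane on their own. Carnitine palmitoyltransferase 1, of which Cpt1b encodes the muscle form and Cpt1a the liver form, loads them onto carnitine at the outer membrane, and the enzyme encoded by Cpt2 returns them to coenzyme A inside. In each turn of beta-oxidation an acyl-CoA dehydrogenase then removes hydrogen, a hydratase and a second dehydrogenase follow, and a thiolase releases acetyl-CoA, so that the chain becomes shorter. Acadvl, Acadl, Acadm and Acads encode dehydrogenases for very long, long, medium and short chains. Hadha and Hadhb encode the alpha and beta subunits of the mitochondrial trifunctional protein, which carries out the later steps for long chains, and Acaa2 encodes a thiolase. Etfdh encodes the membrane enzyme that passes the electrons from the dehydrogenases to ubiquinone of the respiratory chain. Heart muscle draws most of its energy from fatty acids, and brown fat cells burn them to make heat through uncoupling protein 1, encoded by Ucp1.

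In the GENCODE annotation of GRCm38, Acadvl lies at chr11:70010183-70015411 on the minus strand, Acadl at chr1:66830839-66863277 on the minus strand, Acadm at chr3:153922357-153944632 on the minus strand and Acads at chr5:115110299-115119346 on the minus strand. Cpt1b lies at chr15:89416405-89425863 on the minus strand, Cpt2 at chr4:107903981-107923610 on the minus strand and Etfdh at chr3:79603788-79629500 on the minus strand. Hadha (chr5:30118304-30155162, minus strand) and Hadhb (chr5:30155248-30184593, plus strand) stand head to head, so that the promoters of both subunits of the trifunctional protein share 1 short stretch of DNA. That stretch is shown because the 2 genes point away from it in opposite directions, and it was copied from RefSeq promoter windows of build GRCm38.p6, which reach from 250 bases before to 50 bases after the start of a gene. It spans the 85 bases of chr5:30155163-30155247, given on the plus strand.
Hadha to Hadhb: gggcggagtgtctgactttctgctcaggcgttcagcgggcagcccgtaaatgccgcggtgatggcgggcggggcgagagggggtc

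Windows were held for 8 of the 10 genes, the others being Cpt1b and Acaa2. The letters AAGGTCA, the extended half-site known for estrogen-related receptors, were searched on both strands and occurred in 1 of these 8 windows, that of Acadm, and in 4.72% of 32851 windows of the same length. The letters GCGCATGC, the core known for nuclear respiratory factor 1, occurred in the windows of Etfdh and Acadm and in 2.71% of all windows. A direct repeat of AGGTCA with 1 base between the copies occurred in no window of these genes and in 0.0396% of all windows. The stretch of the Acadm window that holds the first motif is shown with the motif in capitals, read from the opposite strand. It covers the 60 bases of chr3:153944834-153944893 on the minus strand, and the first capital lies 249 bases upstream of the start.
Acadm: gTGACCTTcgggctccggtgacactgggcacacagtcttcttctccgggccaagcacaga

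The 4 sections held 4933 spots under tissue, with 842 spots and 9386470 UMIs (unique molecular identifiers, which count captured RNA molecules) for the male NV mouse, 473 and 6957392 for the female NV mouse, 1565 and 11880468 for the male V mouse and 2053 and 34308556 for the female V mouse. Spots were sorted by 3 marker genes. Cardiac muscle spots had Myl7, an atrial myosin light chain, at 5000 or more CPM (counts for every 1000000 UMIs of the spot or of the summed class), adipose spots had the fat cell hormone Adipoq at 500 or more, and alveolar spots had the surfactant gene Sftpc at 5000 or more with little of the other 2. The V male stood apart from the other mice, because 1562 of its 1565 spots were alveolar and it had no cardiac muscle and no adipose spot. Myl7 had a UMI in 1.53% of its spots, against 94.7% to 98.3% of spots in the other mice, and Adipoq in 1.21% against 39.4% to 85.6%. Alveolar spots numbered 73 (NV male), 78 (NV female) and 844 (V female). Cardiac muscle spots numbered 127, 38 and 117 and adipose spots 28, 80 and 275 in the same order. The V side of the cardiac muscle and adipose comparisons was therefore the V female alone, and vaping cannot be told apart there from anything else that was particular to that mouse or its section. The defining markers were checked in each class. Myl7, Adipoq and Sftpc chose the spots, so that their own differences between classes were set by the sorting and count for nothing here. Every cardiac muscle marker other than Myl7 (a list of 10 with it) was called higher in cardiac muscle than in alveolar spots (edgeR's quasi-likelihood test on sums per mouse). Every adipocyte marker other than Adipoq (6 with it) was called higher in adipose than in alveolar spots, and every alveolar type 2 marker other than Sftpc (8 with it) was called lower in both. The cardiac muscle markers other than Myl7 were also called higher in adipose than in alveolar spots, which had been chosen for little Myl7, so that the adipose spots held some muscle RNA.

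Transcripts of all 10 genes were more abundant in cardiac muscle spots and in adipose spots than in alveolar spots of the same mice. The sum of the 10 genes in alveolar spots was 907 CPM (NV male), 964 (NV female), 713 (V male) and 1659 (V female). In cardiac muscle spots it was 2503, 2996 and 3236 for NV male, NV female and V female mice. In adipose spots it was 1825 (NV male), 2390.2 (NV female) and 6292 (V female). In both NV mice the sum was thus highest in cardiac muscle, whereas in the V female it was highest in fat. Because spots mix cells, more cells of a type and more RNA of these genes per cell cannot be told apart. Within sections, the median alveolar spot held 4 to 16 UMIs of the 10 genes together, so single spots carried little information and sums over spots were compared between mice.

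**Figure D1:**
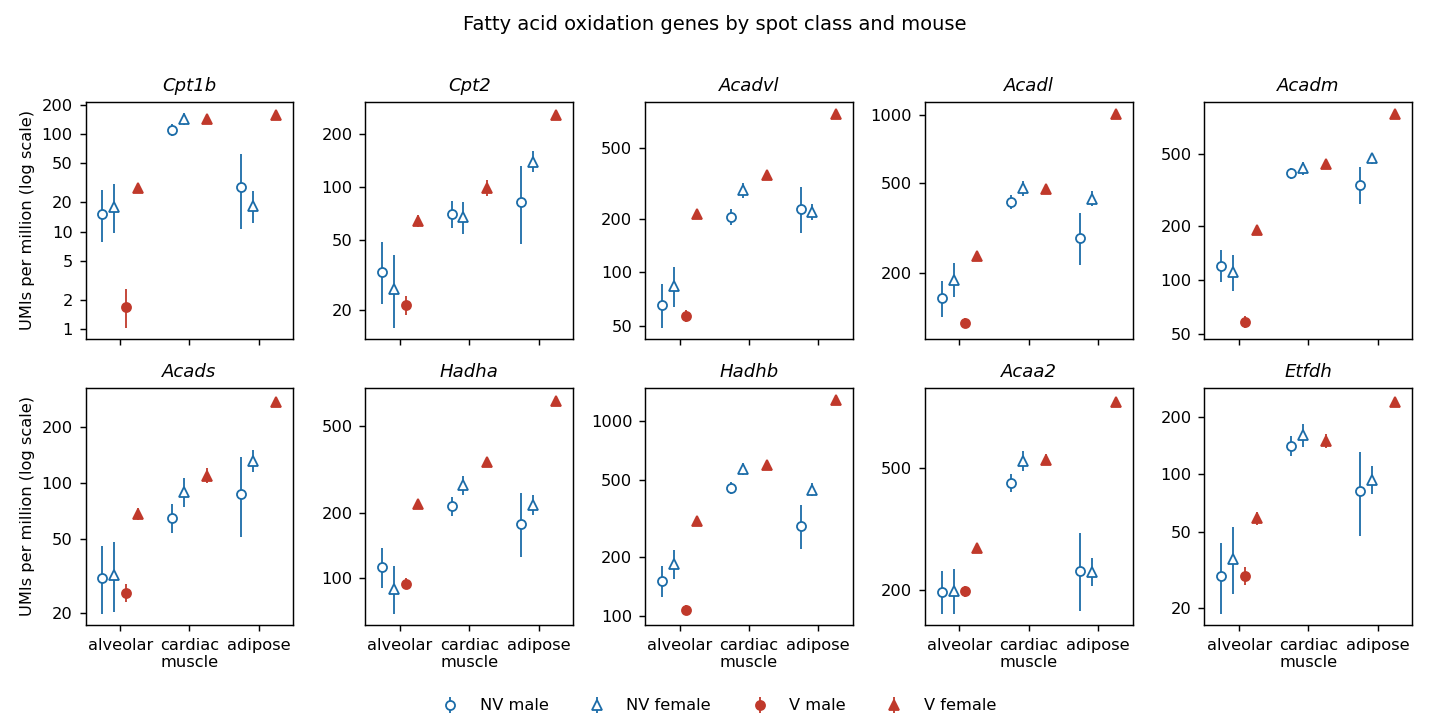
CPM (log scale) of each of the 10 genes in alveolar, cardiac muscle and adipose spots, 1 point per mouse, with exact 95% Poisson intervals that cover counting error only. Open blue symbols are NV and filled red symbols V mice, circles are males and triangles females. The V female (red triangle) is the highest of the 4 mice in alveolar spots and of the 3 mice in adipose spots for every gene, and the V male (red circle) has alveolar spots only.

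The mitochondrial fatty acid oxidation genes were compared between spot classes within the 3 mice that had all classes, with the mouse as a block. In cardiac muscle against alveolar spots all 10 were called higher, which needed an adjusted p under 0.05 (Benjamini-Hochberg, edgeR's quasi-likelihood test over all genes) together with a log2 fold change beyond ±0.25, where 22.6% of all genes tested were called higher and 19.5% lower. The median log2 fold change of the 10 was 1.81, against -0.02 over all genes. In adipose against alveolar spots all 10 were also called higher, where 17% of all genes were called higher and 17% lower, with a median of 2.07 against -0.09. Scaling by total UMIs in place of TMM (edgeR's trimmed mean of M values, which assumes that most genes do not differ) moved the median of all genes to -0.58 in cardiac muscle and -0.42 in adipose spots, and the share of called genes that were higher went from 53.7% to 16.2% and from 50.1% to 22.7%. All 10 genes kept their calls under that scaling in both comparisons. Mitochondrially encoded transcripts made up 20.3% to 22.8% of UMIs in cardiac muscle spots and 9.92% to 15.0% in adipose spots, against 5.08% to 6.67% in alveolar spots of these 3 mice, and the part of this share in the differences was not tested.

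**Figure D2:**
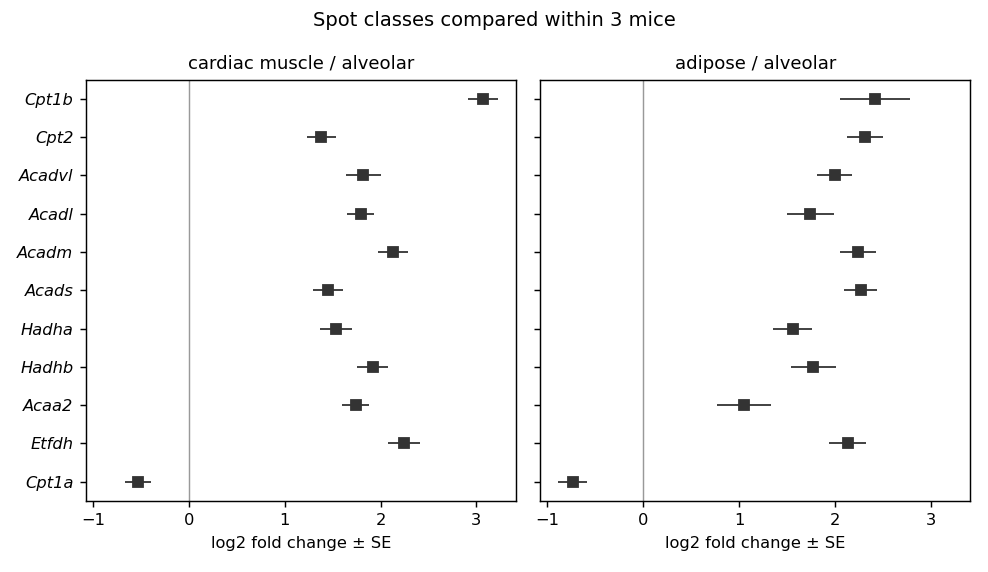
Log2 fold change (symbol) with its standard error (bar) of the 10 genes and Cpt1a in cardiac muscle against alveolar spots (left) and adipose against alveolar spots (right), 3 mice each; filled symbols passed the threshold. All 10 genes lie above 0 in both panels, with Cpt1b farthest to the right, and Cpt1a lies below 0.

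For carnitine entry, the levels of the muscle isoform Cpt1b marked cardiac muscle most sharply. Cpt1b stood at 15.3 CPM (NV male), 18.1 (NV female) and 27.9 (V female) in alveolar spots. In cardiac muscle spots it stood at 109 (NV male), 142 (NV female) and 143 (V female). The ratio of cardiac muscle to alveolar spots was 7.12, 7.84 and 5.11 in the 3 mice, the largest of the 10 genes in each mouse, and the log2 fold change was 3.07 ± 0.15 (SE, adjusted p = 4.47e-11, edgeR). In adipose spots Cpt1b was close to its alveolar level in the NV female (18.2 CPM, 29 UMIs), somewhat above it in the NV male (28.9, 6 UMIs) and 158 in the V female (1463 UMIs). Its adipose to alveolar ratio was thus 1.89 in the NV male and 1.01 in the NV female but 5.67 in the V female. The call of Cpt1b in adipose against alveolar spots (2.42 ± 0.36, edgeR adjusted p = 0.000269) was lost without the V female, at 0.58 with an adjusted p of 0.519.

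Cpt2, the inner membrane enzyme, stood in alveolar spots at 33.2 CPM (NV male), 26.4 (NV female) and 64.2 (V female). Its levels were 70.5, 67.4 and 98.8 in cardiac muscle spots and 81.8, 140 and 255 in adipose spots of these mice. Cardiac muscle and adipose values overlapped across mice and both lay above all alveolar values, and within each mouse Cpt2 was highest in adipose spots. Its log2 fold change was 1.38 ± 0.15 in cardiac muscle and 2.32 ± 0.19 in adipose against alveolar spots (adjusted p = 1.07e-06 and 3.08e-06, edgeR).

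Cpt1a, the liver isoform, is not one of the 10 genes and ran the other way. Its alveolar level was 101 and 100.05 CPM in the NV mice, 116 (V male) and 79.7 (V female). It was 40.2 to 43.0 in cardiac muscle and 37.4 to 51.6 in adipose spots, below every alveolar value. The log2 fold change was -0.53 ± 0.14 in cardiac muscle (edgeR adjusted p = 0.00442) and -0.74 ± 0.15 in adipose spots (edgeR adjusted p = 0.00277). Both calls were lost with DESeq2 (adjusted p = 0.0738 and 0.0582) and with stricter alveolar spots (adjusted p = 0.787 and 0.58), and the adipose one without the V female (adjusted p = 0.0893), all with the same sign. UMIs of Cpt1b per UMI of Cpt1a were 0.152 and 0.181 in alveolar, 2.72 and 3.29 in cardiac muscle and 0.667 and 0.354 in adipose spots of the NV male and NV female. In the V female they were 0.35 in alveolar, 3.36 in cardiac muscle and 4.23 in adipose spots, so its fat held more Cpt1b UMIs than Cpt1a UMIs, unlike that of either NV mouse. In the V male's alveolar spots the ratio was 0.0145, the lowest of all.

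**Figure D3:**
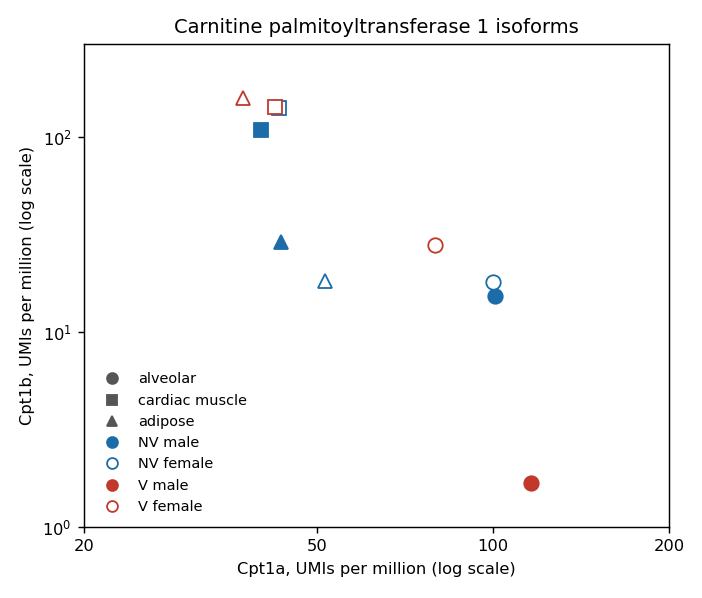
Cpt1b against Cpt1a, CPM on log axes, 1 point per mouse and spot class; blue is NV, red is V, filled males, open females. Alveolar sums (circles) lie at Cpt1a of 79.7 or more, cardiac muscle sums (squares) lie together at Cpt1b of 109 to 143, and of the adipose sums (triangles) the V female lies at 158 and the NV mice at 18.2 and 28.9.

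The 4 acyl-CoA dehydrogenases were lowest in alveolar spots of every mouse, and their order between fat and cardiac muscle varied. Acadl, for long chains, stood at 154 and 186 CPM in alveolar, 410.3 and 473 in cardiac muscle and 284 and 427 in adipose spots of the NV male and NV female. Acadm, for medium chains, stood at 120 and 110, at 390 and 417, and at 337 and 473. Acadvl, for very long chains, stood at 65.1 and 83.4, at 205 and 288, and at 226 and 218, and Acads, for short chains, at 30.6 and 32.0, at 64.6 and 88.9, and at 86.7 and 131. Acadm and Acads were higher in fat than in cardiac muscle of the NV female, while Acadl was lower in fat than in cardiac muscle of both NV mice. Log2 fold changes in cardiac muscle against alveolar spots were 1.82 ± 0.18 for Acadvl, 1.79 ± 0.14 for Acadl, 2.13 ± 0.16 for Acadm and 1.45 ± 0.16 for Acads (edgeR adjusted p of 5.47e-09 to 6.85e-07). In adipose against alveolar spots they were 2.0 ± 0.18, 1.75 ± 0.24, 2.24 ± 0.19 and 2.27 ± 0.17 in the same order (edgeR adjusted p of 2.09e-06 to 0.00016).

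Both subunits of the trifunctional protein differed in the same direction, with more Hadhb than Hadha UMIs in every mouse and class, counts that are not corrected for transcript length. Hadhb had 2.11, 2.12 and 1.74 UMIs per UMI of Hadha in cardiac muscle spots and 1.62, 2.04 and 1.97 in adipose spots for NV male, NV female and V female mice. In alveolar spots the ratio was 1.34, 2.08 and 1.39 in these mice and 1.14 in the V male. In adipose spots Hadha stood at 178, 218 and 650.4 CPM and Hadhb at 289, 444 and 1278 for NV male, NV female and V female mice. Against alveolar spots, the log2 fold change of Hadha was 1.53 ± 0.16 in cardiac muscle and 1.56 ± 0.21 in adipose spots, and that of Hadhb was 1.92 ± 0.16 and 1.78 ± 0.24 (edgeR adjusted p of 2.55e-08 to 0.000109).

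Acaa2 (GRCm38 chr18:74779197-74806208, plus strand), the thiolase, differed little between fat and lung tissue in NV mice. Its levels in alveolar spots were 197 CPM in the NV male and 199 in the NV female, against 231 and 229 in adipose and 448 and 528 in cardiac muscle spots. The adipose to alveolar ratio was 1.18 and 1.15 in the NV mice and 3.02 in the V female, and the call of Acaa2 in that comparison (1.05 ± 0.28, edgeR adjusted p = 0.0117) was lost without the V female, at 0.47 with an adjusted p of 0.126. It was also lost without the mouse as a block (adjusted p = 0.0885). In cardiac muscle the log2 fold change was 1.74 ± 0.14 (edgeR adjusted p = 2.26e-08).

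Etfdh, which hands electrons to the respiratory chain, had the largest difference after Cpt1b in cardiac muscle. It stood at 29.3, 36.1 and 58.9 CPM in alveolar and 141, 159 and 149 in cardiac muscle spots for NV male, NV female and V female mice, and the classes did not overlap. In adipose spots it stood at 81.8, 93.7 and 238. The log2 fold change was 2.24 ± 0.17 in cardiac muscle and 2.13 ± 0.20 in adipose against alveolar spots (edgeR adjusted p = 5.71e-09 and 7.29e-06).

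Between V and NV mice, the mitochondrial fatty acid oxidation genes were all called higher in adipose spots of the V female than in those of the 2 NV mice. The V female exceeded both NV mice for 10 of 10 genes, a pattern that 16% of the 11683 genes tested showed, and all 10 were called higher, against 2.63% of genes. The median log2 fold change of the 10 was 1.85, against -0.02 over all genes, and scaling by total UMIs gave 1.58 against -0.29, with the share of called genes that were higher going from 82.5% to 56.6% and all 10 calls kept. The test used 1 V mouse against 2 NV mice and assumed that the V mouse varied like the NV mice, so its p-values rest on the spread between the 2 NV mice, pooled across genes.

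Cpt1b had the largest change in adipose spots, 6.71 times the mean of the NV mice, with a log2 fold change of 3.23 ± 0.38 (SE, edgeR adjusted p = 1.84e-14). Acaa2 stood at 825 CPM in the V female against 231 in the NV male and 229 in the NV female (2.11 ± 0.31, edgeR adjusted p = 2.03e-09). These were the 2 genes with the lowest ratio of fat to lung tissue in the NV female. Acadvl stood at 775 in the V female against 226 and 218 (2.08 ± 0.31, edgeR adjusted p = 4.69e-09), and Acadl at 1006 against 284 and 427 (1.74 ± 0.30, edgeR adjusted p = 1.79e-06). Acadm, at 833 against 337 and 473, had the smallest change of the 10 (1.28 ± 0.30, edgeR adjusted p = 0.00157), and Acads stood at 273 against 86.7 and 131 (1.51 ± 0.31). For every one of these dehydrogenases the V female lay above the higher NV mouse by more than the NV mice differed from each other. Hadhb and Hadha changed by nearly the same amount, with log2 fold changes of 2.04 ± 0.30 and 1.96 ± 0.31 (edgeR adjusted p = 4.69e-09 and 4.88e-08). Etfdh changed by 1.67 ± 0.32 and Cpt2 by 1.36 ± 0.31 (edgeR adjusted p = 1.89e-05 and 0.000859). Cpt1a was not called, with 37.4 CPM in the V female against 43.3 and 51.6 in the NV mice (-0.13 ± 0.36, edgeR adjusted p = 1). With DESeq2, 8 of the 10 were called, Cpt2 had an adjusted p of 0.0796 and Cpt1b was given no adjusted p. With adipose spots at 1000 or more Adipoq CPM, 6 of the 10 were called, all but Acadl, Acadm, Acads and Cpt2.

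**Figure D4:**
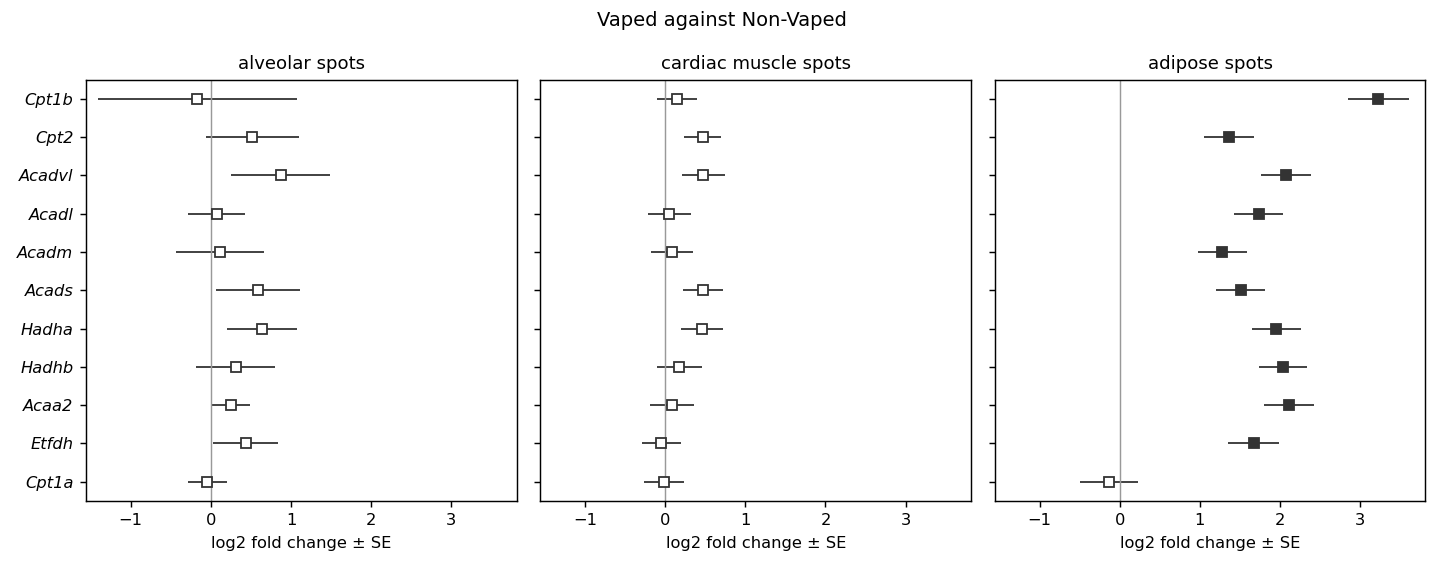
Log2 fold change of V against NV mice (symbol) with its standard error (bar) for the 10 genes and Cpt1a, in alveolar spots (2 V and 2 NV mice), cardiac muscle spots and adipose spots (1 V and 2 NV mice); filled symbols passed the threshold. Only the adipose panel holds filled symbols, for all 10 genes, between 1.28 and 3.23, while the values of the other panels, from -0.17 to 0.87 for the 10 genes, did not pass.

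The fat of the V female also differed in brown adipocyte genes. Ucp1 had 0 UMIs in the adipose spots of the NV male, which allows up to 14.4 CPM, 5 UMIs (3.15 CPM) in those of the NV female and 2352 CPM in those of the V female, where 263 of 275 spots (95.6%) held it. Of the 6 brown adipocyte markers 5 were called higher in V adipose spots, Ucp1, Elovl3, Otop1, Cox8b and Cox7a1, and Slc36a2 was not (0.36 ± 0.31, edgeR adjusted p = 1). The summed level of the 6 markers was 1078 and 1322 CPM in the NV mice and 7276 in the V female. Cox8b and Cox7a1 were also abundant in cardiac muscle spots, where they stood at 1254 to 1606 and 1766 to 2190 CPM. None of the 6 general adipocyte markers was called, and their sum was 11737 and 14325 in the NV mice and 7712 in the V female. The sum of the 10 cardiac muscle markers was 8998, 6832 and 4879 for NV male, NV female and V female mice, that of the 4 club cell markers 4516, 1272 and 7749, with 3 of 4 called higher, and that of the 5 B and plasma cell markers 5638, 3287 and 298, with 2 of 5 called lower. The sum of the 8 alveolar type 2 markers was 11742, 11314 and 8332 in the same order, with none called. The part of muscle, airway, alveolar and immune cells in the differences of the 10 genes was not tested.

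Within the adipose spots of the V female, the 10 genes were higher where Ucp1 was higher. In its 42 spots with Ucp1 under 300 CPM the sum of the 10 genes was 2526.6 CPM, against 1825 and 2390.2 in all adipose spots of the NV mice. It was 3588 in 108 spots at 300 to 1000, 5163.6 in 68 spots at 1000 to 3000 and 9573.3 in 57 spots at 3000 or more. Each of the 10 genes was higher in every bin than in the one before it. Cpt1b went from 45.8 CPM in the lowest bin to 77.1, 139 and 249, and Acaa2 from 300.2 to 425, 710 and 1279. Cpt1a ran in the opposite direction, from 57.9 to 52, 36.5 and 23.0. The median spot of the lowest bin held 11268.5 UMIs and that of the highest 66453, so that depth moved with Ucp1, and the part of depth in these levels was not tested. Spots of 1 section are not replicates, and these values have no test.

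Comparing only adipose spots with Ucp1 under 300 CPM, a subset chosen after the data were seen, none of the 10 genes was called between the V female and the NV mice (24 of 9994 genes called, 386 at an unadjusted p under 0.05, edgeR). Their log2 fold changes then lay between -0.23 for Etfdh and 1.10 for Cpt1b, with a median of 0.23. This limit kept all 28 and 80 adipose spots of the NV male and NV female, but only 42 of the V female's 275. UMIs of the V female went from 9256023 to 742901. Spots were thus removed from the V side alone, and they were those where the 10 genes were highest. The loss of calls is therefore no independent result. With the limit at 1000, 1 of 10 was called, Cpt1b, and the median was 0.66.

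**Figure D5:**
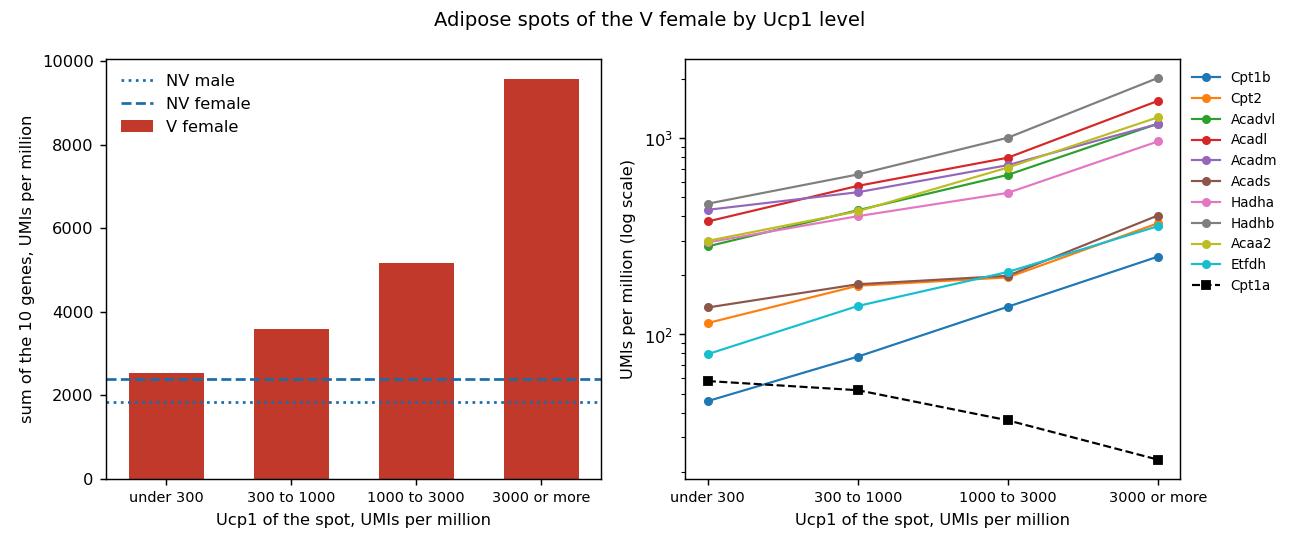
Adipose spots of the V female in 4 bins of the spot's own Ucp1 level (x axis, CPM). Left, bars give the sum of the 10 genes (CPM) and blue lines the same sum over all adipose spots of the NV male (dotted, 1825) and NV female (dashed, 2390.2); right, each gene on a log axis, with Cpt1a as a dashed black line. The bars go from 2526.6 to 9573.3 and all lines but Cpt1a go up.

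In alveolar spots the mitochondrial fatty acid oxidation genes were not called between the 2 V and 2 NV mice, and the 2 V mice lay on opposite sides of the NV mice for most of them. The V female was the highest of the 4 mice for 10 of 10 genes, against 17.6% of all genes tested. The V male was at the same time the lowest for 7 of 10, all but Hadha, Acaa2 and Etfdh, against 5.62% of genes. No gene of the 10 had both V mice above both NV mice, a pattern of 16.9% of genes. None of 13462 genes was called (0%), with 448 at an unadjusted p under 0.05 in edgeR, while DESeq2 called 8 genes, none of the 10, and had 220 at that p. Log2 fold changes ran from -0.17 ± 1.24 for Cpt1b to 0.87 ± 0.62 for Acadvl, with edgeR adjusted p-values of 0.999 to 1.

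Among the dehydrogenases, Acadvl stood at 65.1 CPM (NV male), 83.4 (NV female), 56.6 (V male) and 213 (V female). Acadm stood at 120, 110, 58.2 and 190 in the same order, so that the V male lay clearly below and the V female clearly above the pair of NV mice. Acads stood at 30.6, 32.0, 25.6 and 68.3, and Acadl at 154, 186, 120 and 237. The group means for Acadvl were 74.2 ± 12.9 (NV, SD, n = 2) and 135 ± 111 (V, SD, n = 2), and those for Acadm 115 ± 7.19 and 124 ± 93.0. The SD of the V mice was thus larger than the difference between the groups.

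Hadha, at 112, 88.9, 94.5 and 220 for NV male, NV female, V male and V female mice, and Hadhb, at 151, 185, 108 and 306, had the same mouse on top. Acaa2 was at nearly the same level in 3 mice (197, 199 and 198) and at 274 in the V female. Etfdh stood at 29.3, 36.1, 29.4 and 58.9, and Cpt2 at 33.2, 26.4, 21.4 and 64.2. Cpt1b had the widest spread, with 1.68 CPM (20 UMIs) in the V male against 15.3 (12 UMIs), 18.1 (13 UMIs) and 27.9 (285 UMIs) for NV male, NV female and V female mice. Its 95% Poisson interval in the V male, 1.03 to 2.60, lay below those of the NV mice, which were 7.91 to 26.7 and 9.62 to 30.9.

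Cell type markers also differed between the mice. Marker sums of heart muscle, fat and club cells were lowest in the V male, but only that of the brown adipocyte markers was highest in the V female. Sums of alveolar type 2, alveolar type 1 and capillary markers were instead highest in the V male, at 43831, 6540 and 3301 CPM. The highest values among the other mice were 35987, 5398 and 2669. The sum of the 10 cardiac muscle markers in alveolar spots was 5880, 4391, 24.2 and 3543 CPM for NV male, NV female, V male and V female mice, so the V male's lung tissue was nearly free of heart muscle RNA while that of the other mice was not. The sum of the 6 adipocyte markers was 216, 1078, 31.9 and 921, and that of the 6 brown adipocyte markers 332, 390.5, 47.6 and 1110. Ucp1 was at 0 in both NV mice, at 0.337 (V male) and at 269 (V female), where 706 of 844 alveolar spots (83.6%) held a UMI of it. Elovl3 was at 0 in 3 mice and at 19.6 in the V female. The sum of the 4 club cell markers was 46335, 1153, 309 and 16482, and mitochondrially encoded transcripts made up 6.67%, 5.08%, 5.10% and 5.63% of UMIs. In the V female, the 10 genes summed to 1570 CPM in spots with Myl7 under 500 and Adipoq under 200 CPM, and to 1572 in alveolar spots that held no Ucp1 UMI, against 907 and 964 in all alveolar spots of the NV mice. The 138 spots without a Ucp1 UMI were shallow, with a median of 3103 UMIs against 9795 in all alveolar spots of the V female. Brown adipocyte markers still summed to 803.5 CPM in them, against 332 and 390.5 in alveolar spots of the NV mice, which held no Ucp1 UMI. That list includes Cox8b and Cox7a1, which were abundant in cardiac muscle spots too, and cardiac muscle markers summed to 3207 CPM in these spots. The sum therefore cannot show whether brown fat RNA remained in them. The part of other cell types in the levels of the 10 genes was not tested. The test without spots that held a Ucp1 UMI called none of the 10 (2 of 9384 genes called, 453 at an unadjusted p under 0.05).

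The result in alveolar spots depended on which V mouse was included. Without the V male, the median log2 fold change of the 10 genes was 0.88, against -0.01 over all genes. The largest values were 1.54 for Acadvl, 1.14 for Acads, 1.14 for Hadha, 1.12 for Cpt2 and 0.89 for Hadhb. Without the V female, all 10 had negative log2 fold changes, among them Acadm at -1.03. Their median was -0.48, against -0.004 over all genes, and the share of all genes with a negative value was not counted. Each of these fits held 1 V mouse. Each sex and group had 1 section. The difference between the 2 V mice therefore cannot be assigned to sex, to section or to the single mouse. A response to vaping that differs by sex cannot be told apart from these either. Per spot, the median level of the 10 genes together was 885.9 and 889.3 CPM in the NV mice, 680 (V male) and 1618 (V female), and 10% of the V female's alveolar spots lay below 1012 while 10% of the V male's lay above 1176.

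In cardiac muscle spots none of the 10 genes was called between the V female and the NV mice. Levels in the V female ranged from 0.996 (Etfdh) to 1.43 (Cpt2) times the mean of the NV mice. The V female lay above both NV mice for 8 of 10, all but Acadl and Etfdh, where 36.9% of genes did so, and 84 of 11508 genes (0.73%) were called, with 686 at an unadjusted p under 0.05 (edgeR). DESeq2 called 19 genes and scaling by DESeq2's size factors 174, none of the 10 in either case, and the latter moved the share of called genes that were higher from 78.6% to 66.1%. Acadvl, at 205, 288 and 353 CPM for NV male, NV female and V female mice, had a log2 fold change of 0.47 ± 0.27 (edgeR adjusted p = 0.958). Acads (64.6, 88.9 and 109), Hadha (214, 267 and 341) and Cpt2 (70.5, 67.4 and 98.8) had log2 fold changes of 0.46 to 0.47. For Cpt2 the NV mice lay close together, and the 95% Poisson interval of the V female (89.3 to 109) lay above that of each NV mouse (58.9 to 83.8 and 54.3 to 82.8), but the test over mice gave an adjusted p of 0.862 (0.47 ± 0.23, edgeR). The muscle isoform Cpt1b stood at 109, 142 and 143 (0.14 ± 0.25), and the V female and NV female were within counting error of each other. Acadl (410.3, 473 and 472), Acadm (390, 417 and 442), Hadhb (452, 565 and 594), Acaa2 (448, 528 and 533) and Etfdh (141, 159 and 149) had log2 fold changes from -0.05 to 0.18. For a standard error of about 0.25 on the log2 scale, differences of the size seen here were not detectable with these mice.

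Ucp1 was present in the V female's cardiac muscle spots too, where 1579 UMIs (401 CPM) fell on all of its 117 spots, while the NV male had 0 and the NV female 1. In these spots 3 of the 6 brown adipocyte markers were called higher (Ucp1, Elovl3 and Otop1), the adipocyte marker sums were 649, 1173 and 1435 CPM for NV male, NV female and V female mice, and those of the cardiac muscle markers 50194, 57258 and 41838. None of the 6 adipocyte and 10 cardiac muscle markers was called. Their part in the levels of the 10 genes was not tested.

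Other genes of the same pathways were read from lists by role. Of 16 further genes of fatty acid activation, carnitine transport and mitochondrial beta-oxidation, 15 were called higher and 1, Cpt1a, lower in cardiac muscle than in alveolar spots (median log2 fold change 1.2), with the largest differences for both subunits of the electron transfer flavoprotein, Etfb (1.95) and Etfa (1.90), and for Acsl1 (1.67), which activates long-chain fatty acids. In adipose spots 14 were called higher and Cpt1a lower (median 1.86), led by Acsl1 (2.95), the enoyl-CoA isomerase Eci1 (2.25) and the dienoyl-CoA reductase Decr1 (2.0), which serve unsaturated fatty acids. Between V and NV mice, 6 of the 16 were called higher in adipose spots (median 0.83), led by the carnitine carrier Slc25a20 (2.07 ± 0.33), Eci1 (1.46 ± 0.31) and Etfb (1.46 ± 0.30). None of the 16 was called in alveolar or cardiac muscle spots, with medians of 0.01 and 0.10 and the largest values for Eci1 (0.45) and Etfb (0.30) in the first and Acot2 (-0.68) and Slc25a20 (0.64) in the second. In the V against NV comparison of adipose spots the 10 genes thus had a larger median (1.85) and a larger share called than these 16 genes, a difference that was not tested. The 10 genes and the lists were chosen with earlier results of these data known, so this difference is no independent result.

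Peroxisomes shorten very long fatty acids with a separate set of enzymes. Of 10 peroxisomal genes, 2 were called higher in cardiac muscle spots, among them Scp2 (0.47), and 8 in adipose spots, among them Ehhadh and Acaa1b, with medians of 0.07 and 0.87. In V against NV mice, 2 of 10 were called higher in adipose spots, Acaa1b (1.23 ± 0.33) and the transporter Abcd3 (0.995 ± 0.31), 1 in cardiac muscle spots, Acaa1b (2.36 ± 0.44, edgeR adjusted p = 0.00844), and 0 in alveolar spots, where Acaa1b (1.38 ± 0.56) and Ehhadh (0.57 ± 0.60) had the largest values. Their medians were 0.38, 0.38 and 0.19.

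Of the regulators, the coactivator Ppargc1a (2.33), the nuclear receptor Esrra (1.65) and Acacb (1.54), which makes the malonyl-CoA that blocks carnitine palmitoyltransferase 1, led 5 of 7 called higher in cardiac muscle spots. Acaca (2.81), the acetyl-CoA carboxylase of fatty acid synthesis, Acacb (2.63) and Ppargc1a (1.61) led 5 of 7 called higher in adipose spots. In V against NV adipose spots 2 of 9 were called higher, Mlycd (1.19 ± 0.35), which removes malonyl-CoA, and Acacb (1.03 ± 0.30), whose products act in opposite directions on the entry step. Ppargc1a (0.64 ± 0.61), Esrra (0.89 ± 0.35) and Ppara (2.45 ± 1.45) were not called there (edgeR adjusted p = 1, 0.205 and 0.792). In cardiac muscle spots 1 of 8 was called higher in the V female, Acaca (1.68 ± 0.26, edgeR adjusted p = 0.00168), and in alveolar spots 0 of 8, with Ppargc1a at -1.20 ± 0.72 and Ppargc1b at -0.69 ± 1.43.

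Genes of fatty acid uptake, binding and release were called higher for 6 of 7 in each of cardiac muscle spots (Fabp3 3.65, Lpl 2.5, Fabp4 1.34) and adipose spots, against alveolar spots. None of the 7 was called between V and NV mice in any class, with Fabp3 (0.95 ± 0.31) and Fabp4 (0.52 ± 0.28) highest in adipose spots. In contrast, 14 of 15 nuclear-encoded respiratory chain and ATP synthase subunits were called higher in V adipose spots (median 1.46), led by Uqcrc1 (1.80 ± 0.31), Uqcrfs1 (1.77 ± 0.30) and Sdhb (1.69 ± 0.30), and so were 7 of 8 tricarboxylic acid cycle genes (median 1.63), led by Suclg1 (2.35 ± 0.31), Idh3a (2.06 ± 0.31) and Idh3b (1.84 ± 0.31). None of the genes of these 2 lists was called in alveolar or cardiac muscle spots between V and NV mice, and all were called higher in both cardiac muscle and adipose than in alveolar spots. The median log2 fold changes of the respiratory chain and cycle genes between V and NV mice were 0.11 and 0.14 in alveolar and -0.06 and -0.07 in cardiac muscle spots.

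Over the 10 sums of mouse and spot class, the genes most like the mean of the 10 in log2 level were Idh3g (Pearson r = 0.996) and Idh3a (0.987), both subunits of the isocitrate dehydrogenase of the tricarboxylic acid cycle, Fuom (0.993), Mcee (0.987), which acts in propionyl-CoA breakdown, and Mcrip2 (0.987), out of 7202 genes compared. Cpt1a was near the other end of this order, at -0.92 and rank 7070. Among the 10 genes, the correlation of each with the mean of the other 9 was lowest for Cpt1b (0.849) and Acaa2 (0.88) and highest for Hadhb (0.993). Sums of 1 mouse share a section and a library, and these correlations are descriptions without a test.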

How the data were processed

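RNA of 4 mouse lung sections was measured on Visium slides. Per the labels, the authors used Space Ranger with the mm10 build and Seurat 4.0.3, and each sample's table of UMI counts per gene and spot was deposited without normalisation. Here spots were sorted by marker UMIs (at least 3 UMIs of the cardiac muscle or adipose marker; alveolar spots had Myl7 under 1000 and Adipoq under 200 CPM; spots that met both other rules were left out) and counts were summed per mouse and class with at least 20 spots. Sums ranged from 207716 to 11872627 UMIs, and the shallowest, the adipose spots of the NV male, set the precision of the adipose comparison. Levels are CPM (counts for every 1000000 UMIs of the class sum) with exact 95% Poisson intervals, which cover counting error only, and 0 counts were read as up to 3. Sums were tested with edgeR 4.0.16 (glmQLFit and glmQLFTest, TMM, filterByExpr, R 4.3.3) over all genes, with the mouse as a block between classes, and DESeq2 1.42.0 served as an alternative. The study's methods test single spots, which are not replicates. Calls required p under 0.05 after Benjamini-Hochberg adjustment and log2 fold changes beyond ±0.25. SE is the log2 fold change divided by the square root of the quasi-likelihood F statistic. The test was tried on simulated data. P-values of the alveolar V against NV test measure the spread between sections of a group. Those of the cardiac muscle and adipose V against NV tests rest on the 2 NV sections. Those between classes measure the spread of class differences within mice. The 10 genes, the marker and pathway lists and the tests were chosen with earlier results of these data known. From each other list, up to 3 called genes with the largest change were named, or up to 2 where none was called, except 1 gene that is not reported here, and the other genes discussed with Ucp1, Ppargc1a, Esrra and Ppara were named for their role. The 5 most similar genes were chosen by Pearson r of log2(CPM + 1) among genes with a mean of 20 or more. Sequences came from RefSeq windows of build GRCm38.p6.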

Additional observations from a re-analysis of the deposited data

Results flagged for a closer look

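For 8 of the 10 genes the V and NV mice of the alveolar comparison differed in opposite directions in the 2 sexes, with the V female above the NV female and the V male below the NV male in CPM. The log2 difference of V minus NV in females exceeded that in males by 3.81 for Cpt1b, 1.92 for Cpt2, 1.83 for Acadm, 1.56 for Acadvl, 1.55 for Hadha, 1.35 for Acads, 1.21 for Hadhb and 0.71 for Acadl. The share of all genes with opposite directions in the 2 sexes was not counted, so the pattern cannot be called particular to these genes. With 1 mouse for each sex and group these differences were not tested, and sex and section cannot be told apart. For Acaa2 and Etfdh the V male was within 1% of the NV male, with V to NV ratios of 1.01 and 1.0.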

How the results depend on the processing

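With scaling by DESeq2's size factors or total UMIs, DESeq2's test, no filter on low counts or spots with at least 1000 UMIs, no member was called in alveolar or cardiac muscle spots between V and NV mice. Over members and settings, the alveolar comparison kept direction and side of the threshold in 127 cases, reversed in 18 and gained a call in 5. The adipose comparison kept them in 95, lost a call in 22 and reversed in 3, the cardiac muscle one kept 85 and reversed 5, and the class comparisons kept 120 (cardiac muscle) and 127 (adipose, 3 lost).

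Genes called in alveolar spots (0) became 8 with DESeq2, 8 with no filter, 2 without spots that held a Ucp1 UMI and 7 with club markers under 5000 CPM, the last 2 and the Ucp1 limits below being chosen after seeing the data. Leaving out each mouse gave 0 to 549 genes and 0 to 5 members. Reversed values there, none called, were 0.00093 with no filter, 0.13 over all spots, 0.0074 with stricter and 0.035 with looser alveolar spots for Cpt1a, 0.18 over all spots and 0.28 with looser spots for Cpt1b, -0.066 for Acadl and -0.085 for Acadm without Ucp1 spots and -0.18 for Acadm with few club markers. Leaving out each mouse moved Acadvl from -0.44 to 1.54, Acadl from -0.55 to 0.50, Acadm from -1.03 to 0.74, Acads from -0.34 to 1.14, Hadha from -0.15 to 1.14, Hadhb from -0.68 to 0.89, Acaa2 from -0.046 to 0.49, Cpt1b from -3.33 to 0.76, Cpt2 from -0.53 to 1.12 and Etfdh from -0.20 to 0.87, the lowest each time without the V female. Without the NV male, Acadl was -0.017 and Cpt1a 0.0039, and Cpt1a ranged from -0.32 to 0.16. The cause was not tested. The stricter alveolar spots left out the NV male, which had too few.

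Replicate numbers equal sex. The deviations of same-numbered mice correlated at -0.01 over genes, which with so few mice cannot decide whether the numbers pair mice. With the replicate block in alveolar spots 0 members and 0 genes were called (452 at an unadjusted p under 0.05), with Acadl at -0.0093 and Acadm at -0.13. Without the block, 10 members were called in cardiac muscle and 9 in adipose against alveolar spots. No paired analysis was possible for V against NV in cardiac muscle and adipose spots because no residual degrees of freedom remained, and leaving out the V female there gave no comparison.

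Genes called in cardiac muscle spots (84) became 174 with size factors, 178 with total UMIs, 19 with DESeq2, 187 with no filter, 170 with spots of at least 1000 UMIs and 21 with Myl7 at 2000. Cpt1a was 0.035 with total UMIs and Etfdh 0.072 with Myl7 at 2000. Leaving out an NV mouse, with no test, gave -0.061 to 0.16 for Acadl, -0.045 to 0.21 for Acaa2, -0.048 to 0.34 for Cpt1b, -0.15 to 0.044 for Etfdh and -0.076 to 0.036 for Cpt1a.

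Members called in adipose spots (10) became 0 with Ucp1 under 300, 1 under 1000 and 6 with Adipoq at 1000, and genes called (372) became 24, 89 and 115, and 129 with DESeq2. Under 300, Acadl was -0.0034, Cpt2 -0.11, Etfdh -0.23 and Cpt1a 0.18, and Cpt1a was 0.13 under 1000 and 0.086 without the NV female. Without an NV mouse, with no test, the members' median was 1.70 to 2.10. Genes called between classes were 4689 in cardiac muscle, 7792 with total UMIs, 2739 with DESeq2 and 1463 with stricter alveolar spots, and 3550 in adipose, 1754 with DESeq2, 2327 without the replicate block and 1403 with stricter alveolar spots, with 1235 to 4564 genes on leaving out each mouse and 8 members without the V female. Depth limits the adipose spots of the NV male most, where Cpt1b rests on 6 UMIs.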

Other observations

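Over whole sections, all spots together, the 10 genes summed to 1311 CPM (NV male), 1779 (NV female), 713 (V male) and 3193 (V female). Fat-marked spots outside the adipose class had much lower sums: at Adipoq of 200 to 500 CPM and Myl7 under 5000, the sum was 996.6 in 38 spots of the NV male, 1032 in 173 spots of the NV female and 1912 in 567 spots of the V female. At Adipoq of 500 to 1000 CPM it was 1133 in 39 spots of the NV female and 7091 in 193 spots of the V female, and at 1000 or more 1925, 2656 and 4944 in 25, 58 and 123 spots for NV male, NV female and V female mice. The V female's sum was thus higher at intermediate than at high Adipoq, unlike that of the NV female. However, Sftpc at 500 to 1000 Adipoq CPM was 25460 CPM for the NV female, near the 28358 of its alveolar spots, against 7305 for the V female. At 1000 or more it was 9138, 5259 and 5724 for NV male, NV female and V female mice. Spots of the intermediate bin thus differed in alveolar RNA between these 2 females, and its part in their sums was not tested. Those with at least 3 Adipoq UMIs belonged to the adipose class.

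The sum was also compared between spots of different Myl7 level. With Adipoq under 200 CPM, the sum in the NV male was 898.5, 969.7, 1081, 2357 and 2613 as Myl7 went from 500 to 1000 up to 10000 or more, and in the V female 1570, 1684, 1806, 2254 and 2999 from under 500 up to 5000 to 10000, higher at each step in both mice. In the NV female it was 908.4 under 500, 898.3 from 500 to 1000 and 1002 from 1000 to 2000, with no rise over the first step. Spots of 1 section are not replicates, and none of these values was tested.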
